A study of Mus musculus with 3 samples.

Results

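The olfactory receptor clusters of chromosomes 7, 9, 10, 16, 17 and 19 were examined for 5-methylcytosine in mouse frontal cortex. These 6 clusters are known for class II receptor genes, the class typical of land vertebrates, and lie apart from the large cluster of chromosome 2. Members were taken by position on build mm9. They are tiled regions, meaning runs of at least 3 array probes with gaps between successive starts of no more than 500 bp, with a midpoint in 113.7 to 116 Mb of chromosome 7, 37.5 to 40.1 Mb of chromosome 9, 128.4 to 129.6 Mb of chromosome 10, 58.6 to 59.6 Mb of chromosome 16, 37.5 to 38.7 Mb of chromosome 17 or 12 to 13.9 Mb of chromosome 19. This gave 403 of the 28880 tiled regions on the array. Chromosome 9 held the most (27.0% of the members), chromosome 7 held 79, chromosome 10 held 59, chromosome 16 held 38, chromosome 17 held 43 and chromosome 19 held 75. The other 8185 regions of the same 6 chromosomes served for comparison. They include 160 regions of another receptor cluster on chromosome 7, of class I, which is also set beside the 6 clusters below.

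The data were 3 arrays of 1 group, each from a pool of frontal cortex DNA of 3 naive male C57BL/6 mice aged 2 months. Sonicated DNA (2 µg per pool) was precipitated with 10 µg of an antibody to 5-methylcytosine and 50 µl of protein G. The antibody is described as blind to hydroxymethylated DNA. The bound fraction (Cy5) and the input (Cy3) were amplified over the whole genome and hybridised together, with the same dyes on all 3 arrays, so enrichment and a dye effect cannot be told apart. Pooling leaves no value for a single animal, and no sorting of cell types is described. The number of arrays, not a read depth, limits the precision. Across the 3 arrays 69.0% to 83.3% of non-control spots were well above background in the input channel and 47.3% to 65.9% in the bound channel, array 1 being highest in both. Each value below is the mean log2 ratio of bound over input signal of a region minus the median probe of its array. A value of 0 is that median probe and not an unmethylated state.

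Olfactory receptor genes form the largest gene family of mammals. Each olfactory neuron transcribes 1 allele of 1 receptor gene, and most receptor genes are silent in other tissues. The genes stand in tandem arrays, and the protein is encoded by 1 uninterrupted exon, with short noncoding exons further upstream. Cytosine methylation in mammals lies mainly at CpG dinucleotides, and antibody capture enriches a fragment according to how many methylated CpGs it carries. A fragment with few CpGs is therefore captured weakly whatever its methylation.

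The files place the probes on mm9 and give no gene names, so the gene at each region was not analysed here. The RefSeq table used for names is on another build (GRCm38.p6), and no coordinates were carried between the builds. On the same chromosomes it lists 6 runs of neighbouring olfactory receptor genes, chosen by gene order, with 450 receptor genes in all (354 protein-coding, 96 pseudogenes) and 84 other genes between them. The run on chromosome 7 (Olfr693 to Olfr519) had 79 receptor genes, against 79 tiled regions. On chromosome 9 (Olfr160 to Olfr986) there were 123 receptor genes, and on chromosome 10 (Olfr9 to Olfr827) 69, against 59 regions. The chromosome 16 run (Olfr172 to Olfr209) had 30 genes and 38 regions, that on chromosome 17 (Olfr90 to Olfr136) 58 and 43, and that on chromosome 19 (Olfr1417 to Olfr1505) 91 and 75. The table does not give receptor classes, and whether each region lies at a receptor gene was not tested.

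Sequences upstream of these receptor genes are shown because the antibody captures a fragment through its methylated CpGs. RefSeq windows of 300 bases (250 before and 50 after the start of the gene model) were found for 303 of the receptor genes. In 76.3% of them the model began with ATG, against 4.45% for other genes of the 6 chromosomes, so the window mostly surrounds the start codon and not a mapped transcription start. The 3 windows below are written 5′ to 3′ on the gene's strand with CpG dinucleotides in capitals, and their positions are on GRCm38.p6. Olfr160 (M72) and Olfr17 (P2) encode much-studied mouse receptors, and Olfr976 had the most CpGs of all the receptor windows. Their positions are chr9:37712231-37712530 (minus strand) for Olfr160, chr7:107097217-107097516 (plus strand) for Olfr17 and chr9:39960995-39961294 (minus strand) for Olfr976.
Olfr160: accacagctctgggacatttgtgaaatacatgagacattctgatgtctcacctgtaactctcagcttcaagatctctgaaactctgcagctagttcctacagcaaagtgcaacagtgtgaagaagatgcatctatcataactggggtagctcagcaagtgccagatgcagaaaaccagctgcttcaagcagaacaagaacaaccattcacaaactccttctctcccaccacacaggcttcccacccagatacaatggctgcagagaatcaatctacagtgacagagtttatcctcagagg
Olfr17: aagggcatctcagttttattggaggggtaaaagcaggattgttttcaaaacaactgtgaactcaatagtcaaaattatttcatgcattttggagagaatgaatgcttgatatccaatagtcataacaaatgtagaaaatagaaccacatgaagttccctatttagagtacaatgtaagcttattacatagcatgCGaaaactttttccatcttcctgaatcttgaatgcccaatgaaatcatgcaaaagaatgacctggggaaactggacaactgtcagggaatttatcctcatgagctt
Olfr976: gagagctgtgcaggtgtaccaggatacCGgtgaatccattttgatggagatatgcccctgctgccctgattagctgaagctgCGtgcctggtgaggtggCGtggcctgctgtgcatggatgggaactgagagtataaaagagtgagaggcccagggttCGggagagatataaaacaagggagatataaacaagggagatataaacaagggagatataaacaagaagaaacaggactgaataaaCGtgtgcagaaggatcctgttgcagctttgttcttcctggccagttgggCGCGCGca
The Olfr160 window has 0 CpGs, the Olfr17 window has 1 and the Olfr976 window has 8, of which 3 stand side by side near its end.

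Receptor windows were poor in CpG. They held a median of 1 CpG (mean 1.07) over 304 windows, against a median of 8 (mean 12.9) over 9606 windows of other genes on the 6 chromosomes. No CpG was present in 38.2% of receptor windows, against 4.55% of the others. At most 3 CpGs were found in 96.7% of receptor windows, against 28.7%, and 10 or more in 0% of them, against 46.2%. Median GC content was 34.7% in receptor windows and 53.7% in the others. The letters TATAAA, sought on both strands, were in 40.5% of receptor windows, against 13.0% of the others and 13.6% of all gene windows. TAATTA, which is its own reverse complement and is the core of many homeodomain motifs, was in 16.4% of receptor windows, against 4.55% of the others and 5.29% of all gene windows. A match describes these letters only.

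The tiled regions of the clusters resembled those elsewhere in size. Members had a median length of 1314 bp and a median of 14 probes, against 1337 bp and 14 probes in the rest of the 6 chromosomes. Long regions were scarcer, with 4 members (0.993%) over 1800 bp, against 10.5% of the rest. Probe design differed more, since 75.6% of member probes had the full length of 60 nt, against 28.6% of probes elsewhere.

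Much of the DNA tiled in the cluster windows gave weak signal before any precipitation. Input was well above background in 39.0 ± 12.0% of the 5129 member probes (SD, n = 3 arrays), against 76.1 ± 7.68% of probes in the rest of the 6 chromosomes. The members were lower on each array, with a mean difference of -37.0 ± 4.36 percentage points (exact two-sided sign-flip permutation p = 0.25, the smallest that 3 arrays allow). Only 29.0% of member probes had input above background on all 3 arrays, against 67.7% of the others. By region, 101 of 403 members (25.1%) had input above background in at least 50% of their probe measurements, against 89.1% of the rest. In 45.8% of member probes neither channel was above background on any array, against 12.8% elsewhere. There the ratio rests on signals near background, some of which may be substituted values. Which of them were substituted was not checked.

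Bound DNA was also detected less often where the input was readable. Among the 1486 member probes with input above background on all arrays, bound signal was above background in 80.4%, 52.1% and 55.0% on arrays 1 to 3. Elsewhere on the 6 chromosomes it was above background in 87.0%, 70.6% and 75.1% of such probes. The members were lower on every array, with a mean difference of -15.04 ± 7.40 percentage points (exact sign-flip permutation p = 0.25). By cluster the share was 50.6 ± 15.9% on chromosome 17, against 78.0 ± 8.05% in the rest of that chromosome. On chromosome 16 it was 77.1 ± 14.0%, against 75.6 ± 9.30%. The other 4 clusters differed from the rest of their chromosomes by -10.3 to -16.6 percentage points. These shares count detected probes and are not ratios. At a given input, however, a lower ratio means a lower bound signal, so the shares are not independent of the ratios below. The median log2 input of probes with input above background on all arrays was 9.73 in members and 10.1 elsewhere. The part of this gap in the detection of bound DNA was not tested.

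**Figure D1:**
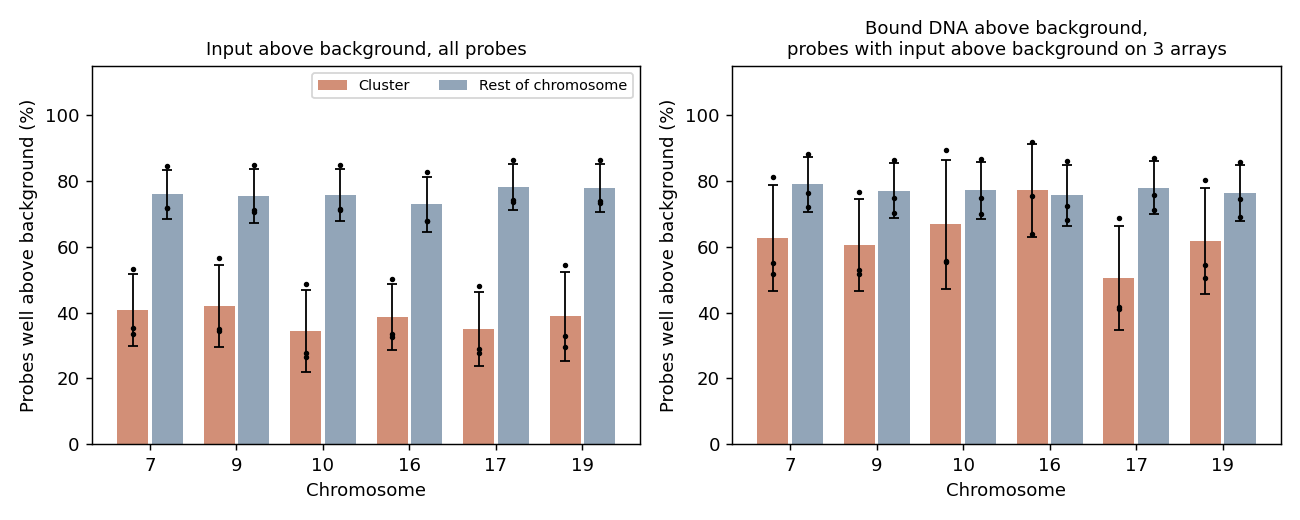
Percent of probes well above background (vertical axes) in each cluster, to the left of the rest of its chromosome, by chromosome. Bars are means over 3 arrays, error bars the SD and dots the arrays; the left panel shows the input channel over all probes and the right panel the bound channel over probes with input above background on all arrays, where the chromosome 17 cluster reached 50.6% and its chromosome 78.0%.

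With every probe used, the receptor clusters sat close to the array median and varied little. Members had a median of -0.07 and an SD between regions of 0.46, against -0.12 and 0.76 in the rest of the 6 chromosomes. Within 0.5 of the array median were 80.6% of members, against 49.7% of the others. By limma with Benjamini-Hochberg adjustment over all regions, 58 members (14.4%) were higher than the array median, where 28% of all regions were. Another 102 members (25.3%) were lower, where 38.1% of all regions were. Against the rest of their own chromosome 69 members (17.1%) were higher, where 30.1% of all regions were, and 80 (19.9%) were lower, where 35.3% were. On this scale fewer members than regions at large were thus called in either direction. Centred on the most frequent ratio of each array instead, 13 members were higher and 368 lower, and with the authors' deposited ratios 24 were higher and 327 lower than the array median. Without array 2 the higher calls numbered 33 against the array median and 44 against the chromosome, and without array 1 the count against the chromosome was 110. Member values correlated between pairs of arrays at r = 0.70 to 0.81 over 403 regions, against 0.90 to 0.93 over the 8185 others, as a description over regions that share probes' design and input level. The 302 members with input above background in under 50% of measurements had an SD between regions of 0.30, against 0.77 among the 101 other members.

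Cluster means over all probes differed little from the rest of their chromosomes, and array 1 was the lowest of the 3 in each. The chromosome 16 cluster was 0.10, 0.33 and 0.30 above the rest of chromosome 16 on arrays 1 to 3, a mean of 0.24 ± 0.12. It was the only cluster called (limma adjusted p = 0.00154 over 915 windows, where 32.1% were called higher and 30.3% lower). By exact sign-flip permutation over the arrays its p was 0.25. The chromosome 7 cluster was -0.28, -0.0045 and 0.03 from the rest of its chromosome on the same arrays (mean -0.08 ± 0.17). Those of chromosomes 9 and 17 averaged -0.03 ± 0.17 and -0.05 ± 0.22, and those of chromosomes 10 and 19 averaged 0.08 ± 0.19 and 0.05 ± 0.16. Without array 1 the chromosome 10 and 19 clusters were called higher, at 0.19 and 0.14, and the values of chromosomes 7, 9 and 17 turned positive, at 0.01, 0.06 and 0.08. Without array 3 the chromosome 7 cluster was called lower, at -0.14. Array 1 also had the highest share of probes above background. Its part in these values was not tested. Over the 6 clusters the difference was -0.16, 0.14 and 0.12, a mean of 0.03 ± 0.17 (exact sign-flip permutation p = 1).

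With both sides restricted to probes with input above background on all arrays the result differed. In 5 of the 6 clusters the mean ratio was lower than in the rest of the chromosome on every array. At least 3 such probes remained in 242 members, namely 51 on chromosome 7, 74 on chromosome 9, 27 on chromosome 10, 21 on chromosome 16, 32 on chromosome 17 and 37 on chromosome 19. The remaining members give no value here. Input is the denominator of the ratio, so this filter favours low ratios. It kept 29.0% of member probes, against 67.7% of the others. The median region went from -0.07 over all probes to -0.87 in members, and from -0.12 to -0.25 in the rest of the 6 chromosomes. The part of this selection in the differences below was not tested. The chromosome 17 cluster had means of -1.0, -1.04 and -1.11, against -0.02, -0.19 and -0.21 in the rest of chromosome 17. All 3 arrays thus placed it below its chromosome, with a mean difference of -0.91 ± 0.07 (limma adjusted p = 7.35e-08). Of the 867 windows with a value, 39.4% were called lower than the rest of their chromosome and 39% higher, and this cluster ranked 8 from the lowest. The chromosome 7 cluster had -0.67, -0.88 and -0.84, against -0.05, -0.20 and -0.22. The difference was -0.65 ± 0.04 (adjusted p = 1.25e-07) and ranked 27 from the lowest. By exact sign-flip permutation over the arrays, p was 0.25 for each of the 6 clusters with these probes.

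The clusters of chromosomes 9, 19 and 10 were lower by smaller amounts. On chromosome 9 the cluster had -0.57, -0.71 and -0.74, against -0.06, -0.23 and -0.25, a mean difference of -0.49 ± 0.02 (limma adjusted p = 3.02e-07). Chromosome 19 gave -0.66, -0.73 and -0.68 in the cluster, against -0.15, -0.32 and -0.33 outside it, a difference of -0.42 ± 0.08 (adjusted p = 3.29e-06). On chromosome 10 the values were -0.22, -0.51 and -0.54, against -0.05, -0.22 and -0.25, a difference of -0.25 ± 0.07 (adjusted p = 8.17e-05). The cluster mean lay below that of its chromosome on every array in these 3, although the chromosome 10 cluster was no longer called after normexp background correction (-0.05, adjusted p = 0.0746). In rank they stood 66, 87 and 160 from the lowest of the 867 windows.

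By means chromosome 16 went the other way. Its cluster had -0.03, -0.19 and -0.16, against -0.06, -0.25 and -0.28 in the rest of chromosome 16. With it, the difference of 0.07 ± 0.04 passed the threshold (limma adjusted p = 0.0422) but was not called without array 2 (0.08, adjusted p = 0.102) or without array 3 (0.05, adjusted p = 0.251). With medians over regions in place of means the difference was -0.11 (adjusted p = 0.0957), while the other 5 clusters stayed lower, at -0.39 to -0.88. With probes of log2 input between 9 and 11, a band added after seeing the data, it was 0.29, 0.33 and 0.34, a mean of 0.32 ± 0.02 (adjusted p = 2.16e-05). The chromosome 16 value thus differed in size with the probes used and in sign with the summary. The lowest of the 6 by means was the chromosome 17 cluster. By medians it was -0.88 ± 0.07 from the rest of its chromosome, against -0.84 ± 0.06 for chromosome 7. On array 2 that order was reversed (-0.80 against -0.90), so medians did not separate these 2 clusters.

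**Figure D2:**
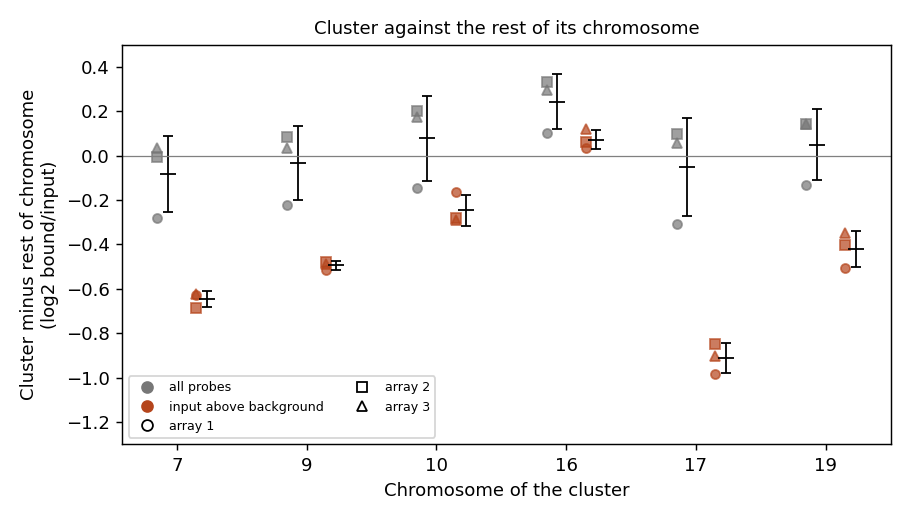
Cluster mean minus the mean of the rest of its chromosome (log2 bound/input, vertical axis) for each of the 6 clusters. Grey symbols are all probes and orange symbols are probes with input above background, with 1 symbol per array and the mean ± SD of 3 arrays beside them; the orange values lie below 0 on all arrays for every cluster except that of chromosome 16 (0.07 ± 0.04).

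Over the 6 clusters the readable probes differed from the rest of their chromosomes by -0.46, -0.44 and -0.42 on arrays 1 to 3, a mean of -0.44 ± 0.02 (exact sign-flip permutation p = 0.25). Input level and probe length moved with this result. With the trend of the ratio over probe length removed the mean was -0.32, and with probes of log2 input between 9 and 11 on both sides it was -0.30. After normexp background correction it was -0.15 and after loess -0.27. The authors' deposited log2 ratios, over every probe that had a value, put all 6 clusters lower than the rest of their chromosomes, with a mean difference of -0.63 ± 0.04 and one of -0.35 for chromosome 16.

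Counts of single regions followed the cluster means. With readable probes 178 of 242 members (73.6%) were lower than the array median by limma, where 47.9% of the 26323 regions tested were, and 32 (13.2%) were higher, where 29% were. Against the rest of their chromosome 158 members (65.3%) were lower, where 41.6% of all were, and 42 (17.4%) were higher, where 35.8% were. The share of members lower than the array median was 90.6% on chromosome 17, 80.4% on chromosome 7, 71.6% on chromosome 9, 70.3% on chromosome 19, 63.0% on chromosome 10 and 57.1% on chromosome 16. The median member was at -0.87, against -0.25 in the rest of the 6 chromosomes. Below -1 were 108 members (44.6%), against 19.8% of the others, and above 1 were 12 members (4.96%), against 11.5%. Between arrays these values correlated at r = 0.88 to 0.90 over 242 members.

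**Figure D3:**
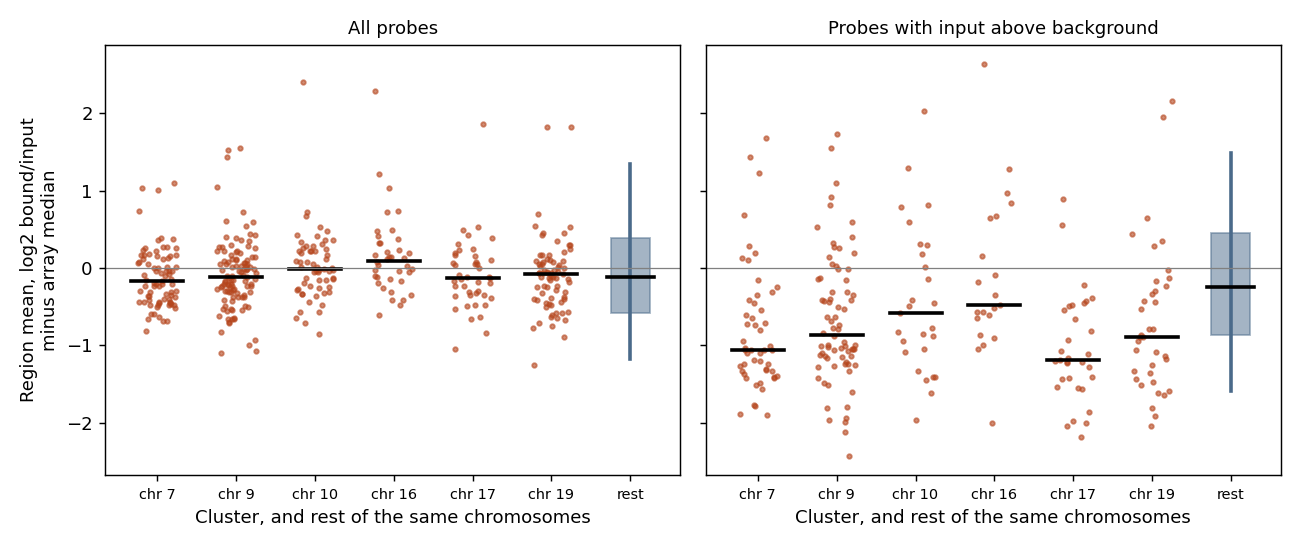
Mean log2 bound/input of each member region relative to the array median (vertical axis, 1 dot per region, mean of 3 arrays), by cluster, with all probes (left) and with probes whose input was above background (right). Black lines are medians; the blue box and line give the 25th to 75th and the 5th to 95th percentiles of the rest of the same chromosomes. With readable probes the members' median is -0.87, against -0.25 in the rest.

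A few receptor-cluster regions were strongly enriched. In each cluster the 2 highest and the 2 lowest regions were named among those with input above background in at least 50% of measurements, on the values from all probes. Several of them lie close to a limit of their window, such as chr16:59555424-59556779 (limit 59.6 Mb), chr17:38690867-38691353 (38.7 Mb) and chr19:12039190-12040414 (12 Mb). Whether regions near a limit resemble those further inside was not tested. The highest over all probes was chr10:129019769-129020536 (mm9), 768 bp with 9 probes, at 2.56, 2.61 and 2.05 on arrays 1 to 3. Its mean of 2.41 ± 0.31 is 5.30 times the median probe (limma adjusted p = 9.37e-08), and bound signal was above background in 27 of 27 measurements. On chromosome 16 the region chr16:59555424-59556779 had 2.60, 2.52 and 1.73, a mean of 2.28 ± 0.48 (4.87 times the median probe, adjusted p = 4.14e-07). With readable probes alone the order of these regions turned, at 2.02 for that of chromosome 10 and 2.63 for that of chromosome 16. Both stood clear of the rest of their clusters on every array, the next named high regions there being at 0.72 ± 0.32 (chr10:129563953-129565173) and 1.21 ± 0.42 (chr16:59406447-59407367).

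The chromosome 19 cluster held a neighbouring pair of high regions. The first, chr19:13674089-13674997, had 1.95, 1.94 and 1.57 (mean 1.82 ± 0.22, adjusted p = 3.64e-07). The second, chr19:13679431-13679804, had 1.85, 1.96 and 1.66 (mean 1.82 ± 0.15, adjusted p = 2.67e-07). Their values lay within the spread between arrays of each other. On chromosome 17 the highest was the short region chr17:37797088-37797321 with 3 probes, at 2.22, 1.60 and 1.74 (mean 1.85 ± 0.32, adjusted p = 5.83e-07). The other high region there, chr17:38202949-38204335, was at 0.49 ± 0.09 (adjusted p = 0.00295). The most frequent ratio of each array lay 0.64 to 0.81 above its median, and with that as zero this region was at -0.23 (adjusted p = 0.109). Chromosome 9 had chr9:38881833-38882467 at 1.97, 1.77 and 0.91 (mean 1.55 ± 0.56) and chr9:39908855-39909165 at 1.76, 1.49 and 1.31 (mean 1.52 ± 0.23). The high regions of chromosome 7 were lower than these, with chr7:114749130-114750543 at 1.08, 1.22 and 0.98 (mean 1.09 ± 0.12) and chr7:114463333-114464456 at 0.99, 1.19 and 0.92 (mean 1.03 ± 0.14).

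At the low end much of the bound signal was not well above background, so a probe with readable input gives only an upper limit of the ratio there, and a probe dim in both channels gives no bound. The lowest named region over all probes, chr19:12039190-12040414, had -1.53, -1.36 and -0.88 (mean -1.26 ± 0.34, limma adjusted p = 1e-05), with bound signal above background in 15 of 42 measurements and input in 34. At chr9:38015490-38016842 the values were -1.41, -0.88 and -1.0 (mean -1.09 ± 0.28), and bound signal passed background in 3 of 48 measurements while input did in 26. The region chr17:38690867-38691353 had -1.11, -1.13 and -0.92 (mean -1.05 ± 0.11), with 1 of 21 bound measurements and 14 input measurements above background. In these 3 regions the input was thus readable far more often than the bound DNA. With readable probes alone they were at -1.62 (chr19:12039190-12040414), -2.12 (chr9:38015490-38016842) and -1.54 (chr17:38690867-38691353), so the order turned. A contrasting low region was chr9:40075624-40077464 at -1.19, -1.13 and -0.89 (mean -1.07 ± 0.16), where 33 of 63 bound and 57 of 63 input measurements passed. The chromosome 10 region chr10:128447240-128448279 was at -0.78, -0.93 and -0.84 (mean -0.85 ± 0.08), with 20 of 24 bound measurements passing. The remaining low regions ran from -0.89 ± 0.06 at chr19:13727738-13729081 to -0.42 ± 0.19 at chr16:58994057-58995267 over all probes, and these 2 were at -2.04 and -0.65 with readable probes. In the chromosome 16 cluster the lowest named region, chr16:58669231-58670522, was at -0.48 ± 0.25 over all probes and at -0.57 with readable probes. Because naming used all probes, regions lower with readable probes could go unnamed. The lowest members by readable probes were at -1.89, -2.43, -1.96, -2.01 and -2.19 on chromosomes 7, 9, 10, 16 and 17, and none of these was named.

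**Figure D4:**
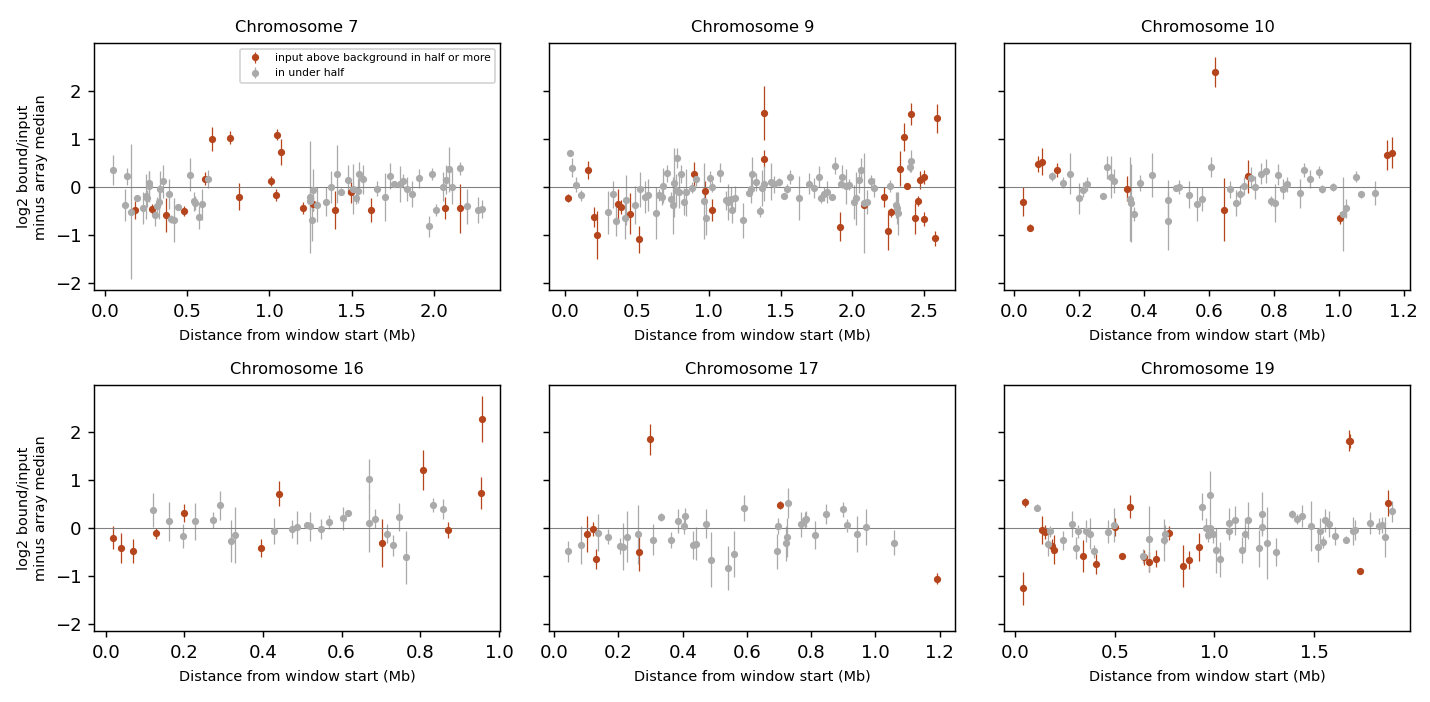
Mean log2 bound/input relative to the array median (vertical axis, dots with SD of 3 arrays) of each member against its distance from the start of its window in Mb, with 1 panel per cluster. Orange dots had input above background in at least 50% of measurements and grey dots in fewer. On chromosome 7 the highest orange regions, at 0.74 to 1.09, all lie between 0.65 and 1.07 Mb. In the other panels high and low orange regions are interspersed, and most grey regions lie near 0.

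The clusters were compared with one another in 15 pairs. With readable probes the difference had the same sign on all 3 arrays in 14 pairs (exact sign-flip permutation p = 0.25 each, 0.268 adjusted over the 15 pairs, so none could pass the threshold). The widest gap was chromosome 16 minus 17, at 0.98, 0.85 and 0.95 (mean 0.92 ± 0.07). Chromosome 10 minus 17 was 0.63 ± 0.14 and chromosome 7 minus 16 was -0.67 ± 0.02. Chromosome 9 minus 19 was 0.01 ± 0.07 with mixed signs, less than the spread between arrays. By means the order from low to high was thus 17, 7, then 19 and 9 not separated, 10 and 16. With medians over regions 17 and 7 were not separated either. With all probes 10 of the 15 pairs kept 1 sign, and chromosome 7 minus 17 (-0.03 ± 0.04) had the opposite sign to that with readable probes (0.25 ± 0.09).

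Neighbouring regions within 1 Mb outside each cluster gave a closer comparison. With readable probes the chromosome 17 cluster was -1.07, -0.99 and -1.05 from its 34 flanking regions (mean -1.04 ± 0.04). The clusters of chromosomes 7 and 9 differed from their flanks by -0.46 ± 0.05 and -0.37 ± 0.05, and that of chromosome 19 by -0.26 ± 0.13. The chromosome 10 cluster did not separate from its 55 flanking regions (0.04 ± 0.10, with mixed signs), which themselves averaged -0.46 ± 0.08. The chromosome 16 cluster was higher than its 8 flanking regions by the mean, at 0.26 ± 0.02, but with medians over regions the difference was -0.026 ± 0.06 with mixed signs. By the mean all but chromosome 10 kept 1 sign on the 3 arrays (exact sign-flip permutation p = 0.25, adjusted 0.30). With all probes the differences were 0.11 ± 0.18, 0.12 ± 0.12, 0.30 ± 0.16, 0.45 ± 0.05, -0.18 ± 0.16 and 0.06 ± 0.14 for chromosomes 7, 9, 10, 16, 17 and 19.

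A pair of windows at other receptor clusters on the array was set beside these. With readable probes the 6 clusters averaged -0.63 ± 0.09, against -0.82 ± 0.15 in 80 regions of the chromosome 2 cluster (regions from chr2:85203005 to 89784870 on mm9). The difference of 0.19 ± 0.07 was positive on all 3 arrays (exact sign-flip permutation p = 0.25). The class I cluster of chromosome 7 (regions from chr7:109415117 to 112183915), whose receptors are of the class shared with fish, averaged -0.27 ± 0.12 over 129 regions, and the 6 clusters differed from it by -0.36 ± 0.03 (exact permutation p = 0.25). Input was above background in 24.3 ± 9.52% of chromosome 2 cluster probes and in 47.9 ± 11.1% of class I cluster probes, so the 3 sets also differ in how much could be read. With all probes the 6 clusters averaged -0.03 ± 0.16, against 0.01 ± 0.16 in the chromosome 2 window and 0.01 ± 0.09 in the class I window. The difference from the chromosome 2 window was then -0.04 ± 0.01, negative on all 3 arrays (exact permutation p = 0.25), opposite in sign to that with readable probes.

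The shape of enrichment within a region was compared between its centre (within 200 bp of the midpoint) and its edges (more than 500 bp away), in regions of 1000 to 1800 bp. With all probes the centres of 278 members were on average above their edges by 0.01, 0.19 and 0.19 (mean 0.13 ± 0.10). The rest of the 6 chromosomes had -0.38, -0.26 and -0.24 (mean -0.30 ± 0.07). By cluster the contrast was 0.18 ± 0.07 on chromosome 7, 0.13 ± 0.22 on 16, 0.35 ± 0.15 on 17 and 0.28 ± 0.04 on 19. It was -0.005 ± 0.17 in 79 members of chromosome 9 and -0.013 ± 0.06 in 40 of chromosome 10. Centres were called higher in 65 members (23.4%), where 14.7% of all such regions were, and lower in 38 (13.7%), where 33.5% were. The gap between members and the rest was 0.43 ± 0.03 and positive on all arrays (exact sign-flip permutation p = 0.25). Without array 2 the calls were 30 higher and 21 lower, and without array 3 the higher calls were 41. Readability differed along the regions in the members. Input was above background on all arrays in 20.4% of member probes within 100 bp of the midpoint and in 46.1% at 600 to 700 bp, against 65.3% and 66.9% elsewhere.

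With readable probes this shape turned round. In the 40 members left, centre minus edges was -0.62, -0.64 and -0.47 (mean -0.58 ± 0.09), against -0.44, -0.38 and -0.34 in the rest (mean -0.39 ± 0.05). Centres were called higher in 6 members (15%), where 18.1% of all such regions were, and lower in 20 (50%), where 43.4% were. Members and the rest differed by -0.19 ± 0.07, but the clusters were uneven. The contrast was -0.15 in 14 members of chromosome 9 and -0.41 in 10 of chromosome 7. It was -1.54 in 4 members of chromosome 10, -0.95 in 4 of chromosome 16, -0.93 in 7 of chromosome 19 and -0.44 in 1 of chromosome 17. Single regions at -4.20 (chr10:128471631-128473071), -2.92 (chr19:12039190-12040414) and -2.33 (chr10:128483890-128485337) enter these means. The difference without them was not tested. At each distance up to 700 bp the readable member probes were below the others, at -0.76 ± 0.10 against -0.36 ± 0.07 within 100 bp of the midpoint and at -0.56 ± 0.14 against 0.07 ± 0.12 at 600 to 700 bp.

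**Figure D5:**
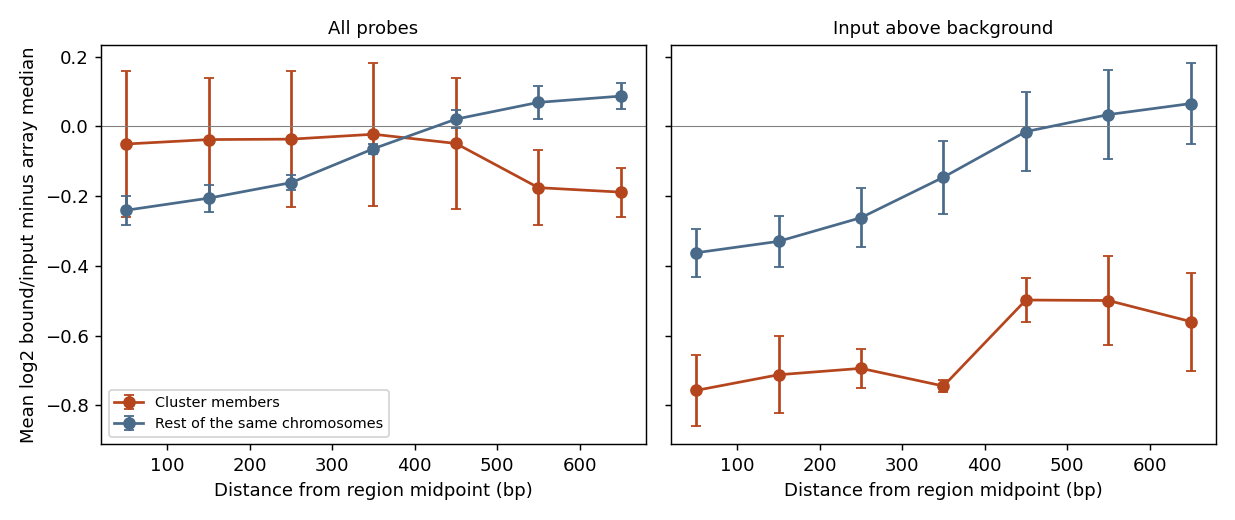
Mean log2 bound/input relative to the array median (vertical axis) of probes in bins of distance from the region midpoint (horizontal axis, bp), for cluster members and for the rest of the same chromosomes, as means ± SD of 3 arrays. With all probes (left) the members are flat near 0 and then fall to -0.19 at 600 to 700 bp; with readable probes (right) they lie below the rest at every distance.

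Single regions showed both shapes, named by the largest contrasts among members with readable input. All of them except chr9:39857211-39858329 lie close to a limit of their window (12 Mb on chromosome 19, 128.4 Mb on 10, 40.1 Mb on 9 and 58.6 Mb on 16). Whether shapes near a limit resemble those further inside was not tested. The deepest central dip over all probes was at chr19:12039190-12040414, with -2.45 ± 0.51 in its centre and 0.14 ± 0.23 at its edges. The contrast of -2.67, -3.28 and -1.81 averaged -2.58 ± 0.74 (limma adjusted p = 5.23e-05), and this was also the lowest named region by its mean. A pair of chromosome 10 regions had enriched edges, with chr10:128471631-128473071 at -0.27 ± 0.28 in the centre and 1.84 ± 0.11 at the edges, and chr10:128483890-128485337 at -0.22 ± 0.13 and 1.57 ± 0.41. Input was above background in 30 of 60 measurements of chr10:128471631-128473071, and with readable probes its contrast was -4.20, against -2.11 over all probes, which made it deeper than chr19:12039190-12040414 (-2.92). Central peaks were found at chr9:40085872-40087185, with a centre of 2.59 ± 0.42 and edges of 0.59 ± 0.04 (contrast 2.00 ± 0.39, adjusted p = 9.93e-05), and at chr9:39857211-39858329, with 1.75 ± 0.25 and 0.25 ± 0.13. The chromosome 16 region chr16:58616887-58618293 had a centre of 0.30 ± 0.23 and edges of -0.91 ± 0.51 (contrast 1.21 ± 0.33, adjusted p = 0.00196).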

How the data were processed

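Genomic DNA of 3 pools of frontal cortex was profiled, 1 array per pool. Titles number the arrays 1 to 3 and were followed, although the descriptions give every array the number 1. Exact permutation p-values rest on these arrays alone. The limma p-values also draw on a variance pooled over all regions or windows tested, so they can be far smaller than the 3 arrays alone allow. Per the file headers, the deposited intensities came from Agilent Feature Extraction (10.7.3.1), with probes placed on mm9, were background-subtracted and scaled per channel, and were replaced by substitute values near background. The authors also deposited log2 ratios in a series table. Those ran as bound over input (r above 0.999 per array) and had column medians near -0.97, and their centring is not stated in the labels.

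Processed bound signal was divided by processed input signal, and log2 of this ratio was centred on the median non-control probe of each array (420288 spots, 4474 of them controls), repeated probes were averaged, and probes were joined into regions. No loess or quantile step was used. limma 3.58.1 in R 4.3.3 tested each region, each window of 2 Mb with at least 10 regions, and each centre minus edges against 0, with Benjamini-Hochberg adjustment at 0.05. Other differences were taken per array and tested with exact two-sided sign-flip permutation. The tests were checked on simulated data. Named regions were the 2 highest and 2 lowest per cluster, and the 3 highest and 3 lowest centre contrasts, with input above background in at least 50% of measurements.

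Alternatives were normexp (offset 50, on spot medians because mean signals are not among the columns used), loess, the series table, filters on dim probes, probe length, region size, centring, medians, flank size and leaving out each array. The input band of 9 to 11, and all alternatives applied to probes with input above background, were added after the data were seen. The members and lists were chosen with earlier results of these data known. Promoter windows came from RefSeq (GRCm38.p6) and were not placed on mm9.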

Additional observations from a re-analysis of the deposited data

How the results depend on the processing

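Over readable probes (input above background on all arrays), leaving out each array gave 159 to 181 members lower and 28 to 32 higher than the array median, and 147 to 156 lower and 38 to 42 higher than their chromosome. The cluster differences then ran from -0.66 to -0.62 (chromosome 7), -0.50 to -0.48 (9), -0.29 to -0.22 (10), 0.048 to 0.090 (16), -0.94 to -0.88 (17) and -0.45 to -0.38 (19), and their mean from -0.45 to -0.43. For the same probes, normexp gave -0.053 for chromosome 10, 0.026 for chromosome 16 and -0.15 for the mean. The series table gave 52 members higher than the array median and 0.024 for chromosome 16. The mean was -0.27 after loess, -0.32 without the probe-length trend and -0.54 with medians over regions, which gave -0.11 for chromosome 16 and -0.026 from its flanks. With input between 9 and 11 the mean was -0.30, and 19 members were higher and 102 lower than the array median and 84 lower than their chromosome.

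Results over all probes depended on how dim probes were treated. Leaving out each array gave 33 to 82 members higher than the array median, 44 to 110 higher than their chromosome, 30 to 61 centres higher and 21 to 30 lower. Cluster differences ran from -0.14 to 0.014 (7), -0.093 to 0.061 (9), 0.015 to 0.19 (10), -0.12 to 0.077 (17) and 0.0035 to 0.14 (19). With input above background, members higher and lower than the array median numbered 32 and 178, and 42 and 158 against their chromosome. The differences were -0.65 (7), -0.49 (9), -0.25 (10), -0.91 (17) and -0.42 (19), the mean -0.44, and those from flanks -0.46, -0.37, 0.038, 0.26, -1.04 and -0.26 in chromosome order. Chromosome 7 minus 17 was 0.25, and centres were higher in 6 and lower in 20 members, with a mean of -0.58. Without probes dim in both channels these were 37 and 239, 45 and 204, -0.47, -0.35, -0.28, 0.049 (16), -0.55 and -0.37, mean -0.33, flanks -0.30, -0.22, 0.0068, 0.29, -0.64 and -0.26, pair 0.061, and centres higher in 17 members, mean -0.15. With input between 9 and 11, 19 and 28 members were higher than the median and their chromosome. The differences were -0.60, -0.43, -0.20, 0.32, -0.64 and -0.27 in chromosome order, the mean -0.30, and those from flanks -0.44, -0.18, 0.061, -0.68 and -0.082. The pair was at 0.070, and centres were higher in 3 and lower in 3, mean -0.14.

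The series table gave 24 members higher and 327 lower than the array median, and 24 and 328 against their chromosome. Its differences were -0.72, -0.62, -0.65, -0.35, -0.86 and -0.61, the mean -0.63, and those from flanks -0.57, -0.50, -0.43, -0.081, -0.81 and -0.33. Its pairs were 0.099 (7 minus 17) and 0.017 (9 minus 10), and centres were higher in 14 and lower in 58, mean -0.35. Normexp gave 43 members higher than their chromosome, -0.062 (7), and flanks at 0.12 (10) and 0.13 (16). Loess gave -0.097 (7), -0.018 (10), -0.12 (17), -0.026 (19), 0.29 for the chromosome 16 flank, and 41 centres higher. Removing the probe-length trend gave -0.11 (7), and at least 5 probes gave 0.042 for the pair 7 minus 17. Centring on the mode gave 13 members higher and 368 lower than the array's zero, and turned chr17:38202949-38204335 to -0.23. Medians gave 0.033 (9), and flanks of 500 kb gave 0.39 (16). Except that fewer probes or arrays enter some of these, the causes were not tested.

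Of 340 values of named regions under these settings, 334 kept their direction and side of the threshold. No paired analysis was possible because the series has 1 group. With 3 arrays no exact p goes below 0.25, and where bound signal is near background a ratio is an upper limit if the input is readable and no bound if it is not.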
